A study of Homo sapiens with 2 samples.

Results

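The cytochrome P450 genes of Caco-2 cells were described, an established line from a human colorectal adenocarcinoma whose cells can take on enterocyte features. They were taken as the protein-coding (NM) records of the deposited table whose gene symbol starts with CYP and a digit, leaving out CYP51A1. This gave 54 genes of the 23709 in the table, or of its 18646 NM records. The CYP1, CYP2 and CYP3 families, best known for drug and pollutant metabolism, supplied 23 genes (the xenobiotic families). The CYP4 and higher families, best known for fatty acids, sterols, steroids and vitamins, supplied 31 (the endogenous-substrate families). CYP2R1, CYP2J2 and CYP2U1 act mainly on endogenous substrates but were counted by family number.

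The study has 2 libraries, both from Caco-2 cells with no treatment named in the labels and grown in serum-supplemented medium with penicillin, streptomycin and ciprofloxacin. The mRNA library was made from poly(A) RNA of total RNA. The RNC-mRNA library was made from poly(A) RNA recovered with ribosome-nascent chain complexes, which are ribosomes still holding the growing protein. There is 1 library of each kind, so no difference has a replicate check and no p-value or SD is given. The labels leave unsaid whether 1 culture supplied both preparations of RNA, and they do not say how long the cells had been confluent.

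P450s are haem enzymes that insert an oxygen atom into their substrate. Most sit in the endoplasmic reticulum and take electrons from P450 reductase (POR), while a smaller set sits in mitochondria and takes them from ferredoxin. In the intestine they meet drugs and dietary compounds before the liver does, with CYP3A4 as the best known enzyme of the adult small intestine. Many xenobiotic P450 genes are switched on by the aryl hydrocarbon receptor AHR or by the nuclear receptors PXR (NR1I2) and CAR (NR1I3).

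The files give RPKM, reads scaled to transcript length and to library size, so levels can be compared between genes. In paired values the mRNA library comes first. The ratio of a gene is log2 of RNC-mRNA over mRNA, each with 0.1 RPKM added, minus the median of all 13402 expressed records (-0.04). Expressed means a mean of at least 1 RPKM over both libraries, and genes are counted below as low or high when they lie 2-fold or more from that median, a size limit and no test. The libraries held 9640364 and 11083302 reads, worked out from the steps of the RPKM values. Intervals beside a ratio are exact Clopper-Pearson 95% intervals, which cover counting error only, since PCR copies are not independent molecules. They come from reads with nothing added, so for weak genes they are not centred on the printed ratio.

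Of 12 enterocyte and liver marker genes, 11 were expressed. The most abundant were APOA1, an apolipoprotein of liver and intestine (1874 and 1322 RPKM), and FABP1, a fatty acid-binding protein of the same organs (137 and 90.7 RPKM). The ratios of the 11 ran from -1.13 (the galectin LGALS4) to 0.21 (the intestinal phosphatase ALPI), with a median of -0.43. Low were 2 of 11, against 8.88% of expressed NM records. FABP2, an enterocyte fatty acid-binding protein, was the exception at 0.277 and 0 RPKM.

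Few P450 genes were expressed, and a single gene made up a large part of the total. Of the 54 genes, 16 reached 1 RPKM as mRNA and 12 as RNC-mRNA, whereas 65.4% and 61.4% of all NM records did so. The expressed genes numbered 14 of 54, against 64.0% of all NM records, and 6 belonged to the xenobiotic and 8 to the endogenous-substrate families. CYP2S1 alone held 40.1% of the summed P450 RPKM of the mRNA library and 57.8% of the RNC-mRNA sum.

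The sequence before the start of the most abundant gene is shown against that of a less abundant one, since the expressed P450 genes differed widely in CG content there. Promoter entries (RefSeq, GRCh38.p14, 250 bases before the annotated start) were matched for 12 of the 14 expressed genes, all but CYP27B1 and CYP2D6. The capitals mark each CG dinucleotide. CYP2S1 lies at chr19:41192969-41193218 on the plus strand and CYP4X1 at chr1:46961114-46961363 on the plus strand.
CYP2S1: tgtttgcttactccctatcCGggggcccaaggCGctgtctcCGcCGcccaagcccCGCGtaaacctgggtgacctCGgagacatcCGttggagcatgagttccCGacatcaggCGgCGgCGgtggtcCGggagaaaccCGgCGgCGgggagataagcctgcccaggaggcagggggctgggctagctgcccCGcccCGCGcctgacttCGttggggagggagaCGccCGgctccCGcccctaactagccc
CYP4X1: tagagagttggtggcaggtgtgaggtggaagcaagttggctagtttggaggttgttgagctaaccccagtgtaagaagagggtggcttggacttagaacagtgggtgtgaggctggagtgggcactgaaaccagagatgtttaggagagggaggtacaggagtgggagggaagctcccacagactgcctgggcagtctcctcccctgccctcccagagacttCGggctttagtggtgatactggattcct

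CYP2S1 held 23 CG in these 250 bases and CYP4X1 held 1. The 5 matched genes of highest mean level, CYP2S1, CYP27A1, CYP2R1, CYP4V2 and CYP20A1, held 23 to 29. The other 7, CYP4X1, CYP1A1, CYP2W1, CYP19A1, CYP4F3, CYP11A1 and CYP1A2, held 1 to 13. Of the 13566 NM records with a promoter entry, expressed or not, 34.7% held at least 23 CG. The limit of 23 is the lowest count of the 5 genes above, so all 5 reach it by its choice and this is no test. CG reads the same on both strands. This is a description of 12 windows at annotated starts, and which start Caco-2 cells use was not measured. High CG content was also found at weak genes: of the 25 matched genes under 1 RPKM, 2 held at least 23 CG, CYP26C1 with 27 and CYP2U1 with 25. Only 37 of all 54 genes (68.5%) and 72.8% of NM records had an entry, too few for a comparison of CG content with level over all of them.

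Among the xenobiotic families, CYP2S1 was abundant and above the median in ratio, and the other expressed genes were lower in the RNC-mRNA library. CYP2S1, an extrahepatic P450 that also acts on retinoids and lipid peroxides, had 57.5 and 74.2 RPKM, resting on at least 1453 and 2156 reads. Its ratio was 0.41 (interval 0.31 to 0.50), within 2-fold of the median gene. CYP2R1, the microsomal vitamin D 25-hydroxylase, came next with 9.81 and 6.19 RPKM (-0.62, interval -0.99 to -0.26). By substrate, CYP2R1 belongs with the vitamin D enzymes, although its family number puts it here.

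The CYP1 genes CYP1A1 and CYP1A2, classical AHR targets that oxidise aromatic hydrocarbons and amines, were both low in the RNC-mRNA library. CYP1A1 had 5.77 and 1.18 RPKM and a ratio of -2.16 (interval -2.84 to -1.71), which is 4.48-fold below the median gene. CYP1A2, best known from liver, had 2.09 and 0.577 RPKM (-1.66, interval -2.62 to -1.07). With 1 RPKM added its ratio was -0.94, which is within 2-fold of the median. These genes lie next to each other on chromosome 15, and fewer than 10% of the 31-base words of either transcript occur in another gene's transcripts. The third member of the family, CYP1B1, which hydroxylates oestrogens, was barely detected at 0.201 and 0.140 RPKM. AHR itself had 4.90 and 5.26 RPKM and a ratio of 0.14.

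CYP2W1 and CYP2D6 followed the CYP1A genes. CYP2W1, known as a P450 of fetal gut and colorectal tumours, had 5.45 and 1.49 RPKM (-1.77, interval -2.40 to -1.30, from no fewer than 121 and 38 reads). CYP2D6, which metabolises many psychoactive and cardiac drugs in liver, had 3.50 and 0.544 RPKM and the lowest ratio of the 14 (-2.45, interval -3.78 to -1.66). With 1 RPKM added its ratio was -1.51 and CYP4V2 was lowest (-1.73). Its RNC-mRNA value rests on at least 10 reads. Of its 31-base words, 56.5% also occur in transcripts of other genes, mainly CYP2D7, so its reads are uncertain.

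**Figure D1:**
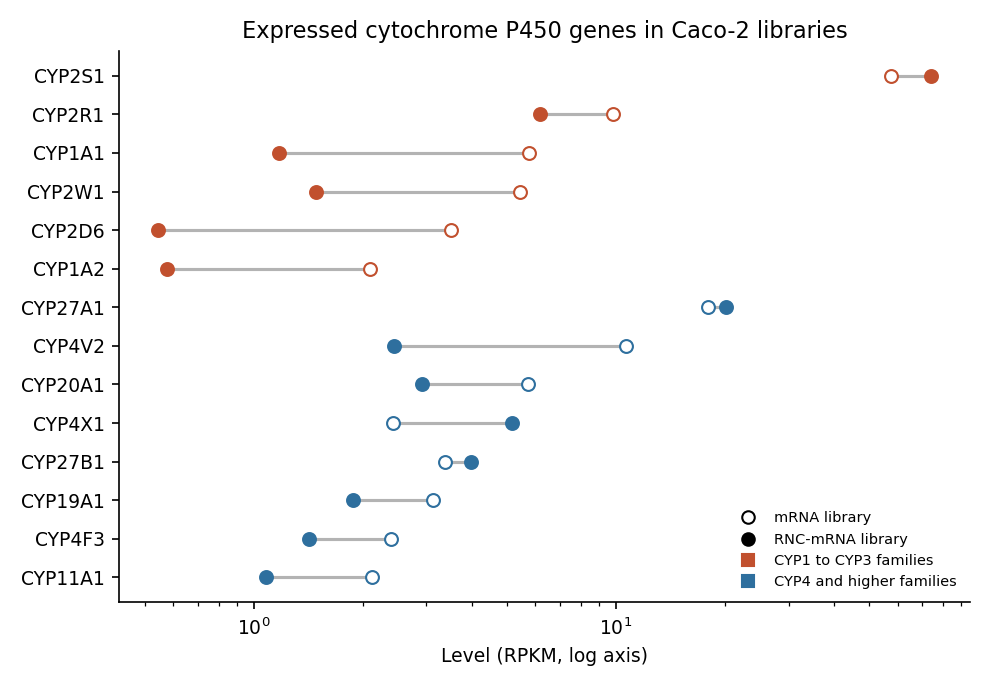
Levels of the 14 expressed P450 genes on a log axis of RPKM, open circles for the mRNA library and filled circles for the RNC-mRNA library (1 library each), coloured by family class. CYP2S1 (57.5 and 74.2 RPKM) and CYP27A1 (18.0 and 20.2 RPKM) stand to the right, and filled circles lie to the left of open ones for 10 of the 14 genes.

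Among the endogenous-substrate families, the expressed mitochondrial hydroxylases of sterols and vitamin D, CYP27A1 and CYP27B1, were within 2-fold of the median gene. CYP27A1, the sterol 27-hydroxylase of bile acid synthesis, had 18.0 and 20.2 RPKM (0.20, interval 0.01 to 0.40). CYP27B1, which makes the active form of vitamin D, had 3.38 and 3.99 RPKM (0.27, interval -0.15 to 0.71). Its exons overlap those of METTL1 on the same strand in GENCODE release 29, and METTL1 had 14.3 and 18.0 RPKM, so reads from the overlap are uncertain. CYP24A1, which breaks down active vitamin D, had 0.540 and 0.0829 RPKM, on at least 17 and 3 reads (-1.77, interval -5.08 to -0.88).

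The steroid hormone P450s that were expressed lay moderately below the median. CYP11A1, the mitochondrial enzyme that starts steroid synthesis from cholesterol, had 2.12 and 1.08 RPKM (-0.87, interval -1.73 to -0.17). CYP19A1, aromatase, which makes oestrogens, had 3.13 and 1.88 RPKM (-0.67, interval -1.26 to -0.14). Both intervals exclude the median and reach past the 2-fold line, so a 2-fold difference was not resolved at this depth. The exons of both overlap genes on the opposite strand (such as MIR4713HG for CYP19A1) that the table does not list under these names, and no strand-preserving step is named in the labels. CYP11B1 and CYP11B2, which make cortisol and aldosterone, were listed at 0 in both libraries.

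The CYP4 family, mostly fatty acid hydroxylases, held both the highest ratio and the lowest ratio of the 8 expressed endogenous-substrate genes. CYP4X1, a P450 of extrahepatic tissues, had 2.42 and 5.17 RPKM, the only expressed P450 at least 2-fold above the median (1.10). Its interval, 0.67 to 1.61 on at least 55 and 135 reads, includes the 2-fold line, and with 1 RPKM added the ratio was 0.88. CYP4V2, a fatty acid hydroxylase whose loss causes a retinal dystrophy, went the other way with 10.7 and 2.44 RPKM. Its ratio was -2.05 (interval -2.39 to -1.81), 4.14-fold below the median gene. KLKB1, which overlaps its exons, was listed at 0 in both libraries. CYP4F3, a leukotriene B4 hydroxylase, had 2.40 and 1.42 RPKM (-0.68, interval -1.28 to -0.16), and 22.9% of its 31-base words occur in other genes, mainly CYP4F2.

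CYP20A1, a P450 with no settled substrate, had 5.72 and 2.91 RPKM (-0.91, interval -1.13 to -0.74). By family number it was counted with the endogenous-substrate genes. It rests on at least 603 and 353 reads, so its ratio is among the more precise of the 14.

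**Figure D2:**
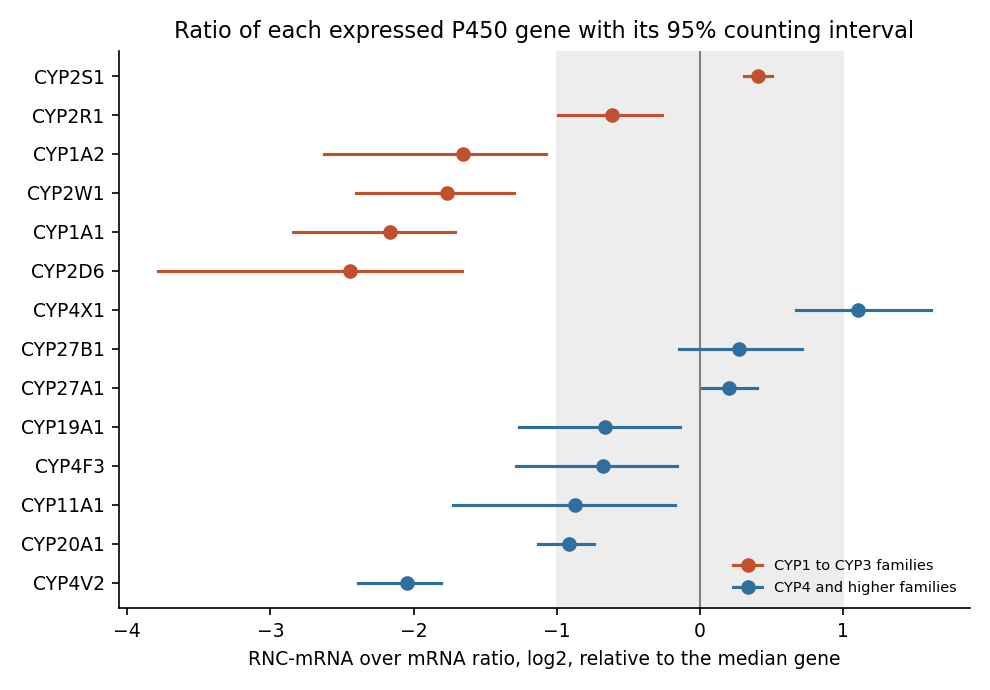
Ratio of RNC-mRNA over mRNA for each expressed P450 gene (log2, relative to the median of all expressed records), with bars for the 95% counting interval and the grey band for 2-fold either way. The bars of CYP1A2, CYP2W1, CYP1A1, CYP2D6 and CYP4V2 lie wholly to the left of the band, and no bar lies wholly to the right.

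Of the 14 expressed P450 genes, 5 were at least 2-fold below the median gene (CYP1A1, CYP1A2, CYP2W1, CYP2D6 and CYP4V2), where 8.88% of all 11940 expressed NM records were. For each of the 5 the counting interval lay wholly below the 2-fold line, which held for 4.72% of the 11918 expressed NM records with an interval. No P450 interval lay wholly above the upper line, as for 0.478% of those records. At least 2-fold above lay 1 of 14 genes, CYP4X1, against 1.33% of expressed NM records. Over all 13402 expressed records, non-coding ones included, 11.8% were low and 1.37% high. In all, 10 lay below the median and 4 above it, and the median ratio of the 14 was -0.78, whereas that of all expressed NM records was 0.03. The interval lay wholly below the median for 10 genes and wholly above it for 3 (CYP2S1, CYP27A1 and CYP4X1), against 28.3% and 31.7% of expressed NM records.

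Weakly expressed records were more often low, and most expressed P450 genes are weak. Among NM records with a mean RPKM from 1 to 10, a range added after seeing the data, 15.5% were at least 2-fold below, 1.86% at least 2-fold above, and the median was -0.12. Within that range 5 of 12 P450 genes were below by 2-fold and 1 was above, with a median of -0.89. Above it lay CYP2S1 and CYP27A1 alone. Whether the level plays a part in these ratios was not tested.

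**Figure D3:**
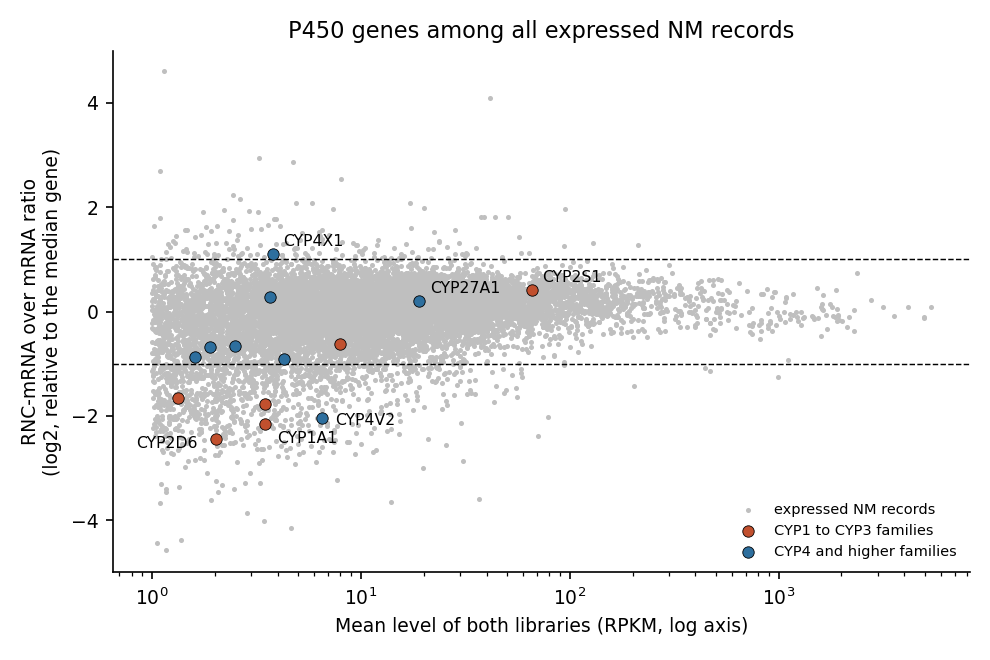
Ratio (log2, relative to the median gene) against mean level (RPKM, log axis) for all 11940 expressed NM records in grey and the 14 expressed P450 genes in colour, with dashed lines at 2-fold. The P450 genes at least 2-fold below lie at mean levels under 10 RPKM, where the grey points also spread furthest down.

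Low ratios were counted in each class of families. In the xenobiotic families 4 of 6 expressed genes were at least 2-fold below, with a median of -1.71 and a range from -2.45 to 0.41. In the endogenous-substrate families 1 of 8 was, with a median of -0.67 and a range from -2.05 to 1.10. Of all expressed NM records 8.88% were, and 15.5% of those with a mean from 1 to 10 RPKM, so 1 of 8 is near these shares. The ranges overlap, the genes are not replicates, and the difference between the classes was not tested. With a mean of at least 5 RPKM, 2 genes were left in each class and the order of the medians turned, to -0.19 and -1.01. Sorting by substrate, with CYP2R1 among the endogenous genes and CYP20A1 left out, gave medians of -1.77 over 5 genes and -0.64 over 8. By place in the cell, the 3 expressed mitochondrial P450s had ratios of 0.20, 0.27 and -0.87, and none was among the 5 low genes. With only 3 genes, none low is near the shares over NM records.

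Sums of RPKM gave another picture than counts of genes, because CYP2S1 outweighed the rest of its class. The xenobiotic families summed to 90.3 and 86.9 RPKM, a relative log2 ratio of -0.02. Without CYP2S1 they summed to 32.8 and 12.6 RPKM, a ratio of -1.33. The endogenous-substrate families summed to 53.1 and 41.5 RPKM (-0.32), and without CYP27A1 to 35.1 and 21.3 RPKM (-0.68). CYP2S1 held 63.7% of the xenobiotic mRNA sum and 85.4% of the RNC-mRNA sum.

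**Figure D4:**
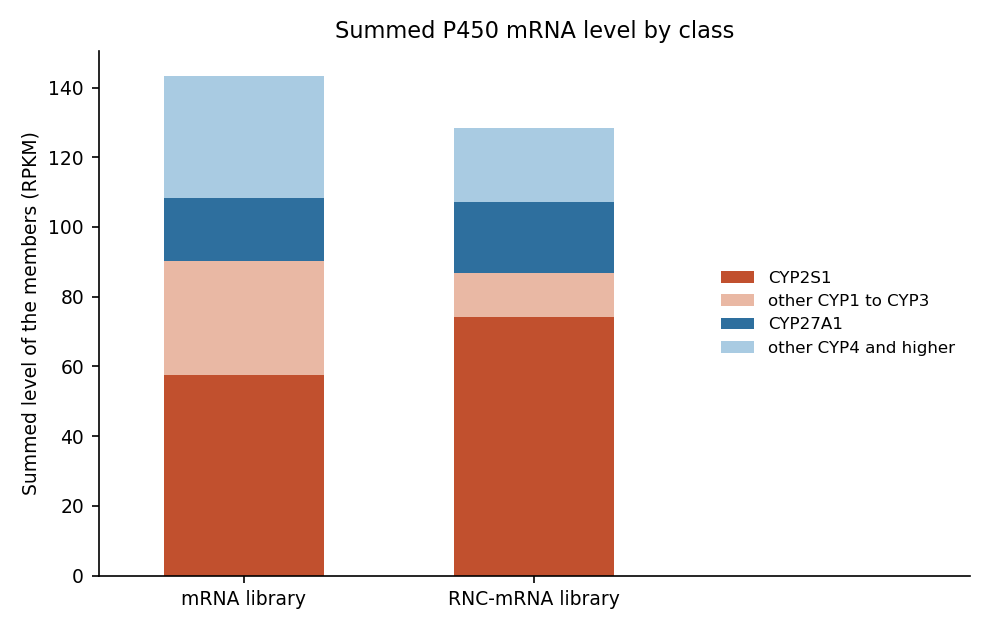
Summed RPKM of all 54 P450 genes in each library, stacked into CYP2S1, the other CYP1 to CYP3 genes, CYP27A1 and the other CYP4 and higher genes. The CYP2S1 part grows from 57.5 to 74.2 RPKM while the other CYP1 to CYP3 genes shrink from 32.8 to 12.6 RPKM.

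The other 40 P450 genes had a mean under 1 RPKM. Of all 54 genes, 8 (14.8%) were listed at 0 in both libraries (CYP2A13, CYP3A43, CYP4F8, CYP4Z1, CYP7B1, CYP11B1, CYP11B2 and CYP26C1), against 12.5% of all NM records. Among the 32 with some signal, 27 (84.4%) were higher as mRNA and 5 as RNC-mRNA. Of the 4371 NM records under 1 RPKM with some signal, 73.9% were higher as mRNA. Together the 40 summed to 11.4 and 5.10 RPKM, on at least 262 and 126 reads. Just under the threshold were CYP2B6, a PXR and CAR target (1.22 and 0.650 RPKM), and CYP4F12 (1.34 and 0.304 RPKM). Just over it were CYP1A2 and CYP11A1. Of the 31-base words of CYP2B6, 26.9% occur in transcripts of other genes, mainly CYP2B7P.

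Several drug-metabolising genes were among these weak ones. CYP3A4 had 0.557 and 0.162 RPKM, on at least 15 and 5 reads, and 26.3% of its 31-base words occur in other genes, mainly CYP3A7. CYP2C19, which acts on proton pump inhibitors among other drugs, had 0.986 and 0.306 RPKM, on at least 14 and 5 reads. Of its 31-base words, 85.2% occur in transcripts of other genes, so its reads are uncertain. CYP2E1, the ethanol-inducible P450, had 0.124 and 0.0541 RPKM. In bile acid synthesis, CYP7A1, its rate-limiting enzyme in liver, had 0.0361 and 0 RPKM and CYP8B1 had 0.446 and 0.206 RPKM, far below CYP27A1. The retinoic acid hydroxylases CYP26A1 (0.231 and 0.281 RPKM) and CYP26B1 (0.527 and 0.319 RPKM) were also weak. Of the 31-base words of CYP26A1, 32.6% occur in transcripts of other genes.

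Levels differed widely between neighbouring P450 genes. Genes within 500 kb of each other in RefSeq were counted as neighbours. Of the 53 genes with a position, 31 lay in groups and 6 of those were expressed, while 8 of the 22 that stand alone were. Of all NM records 64.0% were expressed. The shares for grouped and lone genes in general were not worked out, and the difference was not tested. CYP2S1 lies at the end of a group of 6 on chromosome 19 that also holds CYP2A6, CYP2A7, CYP2B6, CYP2A13 and CYP2F1. Its neighbours had at most 1.22 RPKM in the mRNA library, the level of CYP2B6. CYP4X1 likewise stood apart from CYP4B1, CYP4A11, CYP4Z1 and CYP4A22 on chromosome 1, which had at most 0.203 RPKM in the mRNA library. On chromosome 15, all 3 genes CYP11A1, CYP1A1 and CYP1A2 were expressed.

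The genes listed as redox partners of the P450s, electron donors and haem-binding proteins together, included none with a low ratio. All 9 were expressed, against 64.0% of all NM records. Of the 9, 8 lay above the median, with a median ratio of 0.21. Low were 8.88% of expressed NM records, so with only 9 genes none low is near that share. POR, the reductase of microsomal P450s, had 65.6 and 72.4 RPKM (0.18). Cytochrome b5 CYB5A, which boosts some P450 reactions, had 30.1 and 33.8 RPKM (0.21). Its outer mitochondrial membrane form CYB5B had 49.95 and 66.3 RPKM (0.45), and the b5 reductase CYB5R3 had 84.9 and 94.1 RPKM (0.19).

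The mitochondrial chain and the haem-binding helpers were expressed as well. The ferredoxins FDX1 (12.8 and 17.7 RPKM, 0.51) and FDX1L (17.9 and 26.0 RPKM, 0.58) were above the median, and the ferredoxin reductase FDXR was the 1 partner below it (16.7 and 13.8 RPKM, -0.23). The haem-binding membrane proteins PGRMC1 (53.7 and 76.8 RPKM, 0.56) and PGRMC2 (11.2 and 12.7 RPKM, 0.21) were above it. The haem synthesis enzymes had a median of 0.15 over 8 expressed genes. None was 2-fold away, against 8.88% low and 1.33% high among expressed NM records. ALAD, which makes porphobilinogen, had 29.3 and 32.5 RPKM (0.19). The rate-limiting enzyme ALAS1 was highest (0.30) and the oxidase PPOX lowest (-0.71).

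Regulators of P450 transcription were unevenly present. Of 15 such genes, 11 were expressed, with a median ratio of 0.27. None was 2-fold from the median, against 8.88% low and 1.33% high among expressed NM records. The most abundant were the hepatocyte and enterocyte factor HNF4A (77.4 and 95.2 RPKM, 0.34) and the common partner receptor RXRA (32.8 and 35.2 RPKM, 0.14). The repressor NR0B2 was highest (0.83) and the retinoic acid receptor RARG lowest (-0.31). NR0B2 rests on at least 9 and 19 reads, and its interval, -0.30 to 2.24, includes both the median and the 2-fold line. NR1I2, which encodes PXR, was near the detection limit at 0.0939 and 0.143 RPKM, and NR1I3, which encodes CAR, had 2.36 and 3.20 RPKM. The AHR repressor AHRR had 0.531 and 0.207 RPKM.

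Conjugating enzymes act on P450 products, among other substrates. Of 40 genes on this list, which also holds epoxide hydrolases, 24 were expressed, with a median ratio of -0.15. At least 2-fold below lay 5 and above 0, against 8.88% and 1.33% of expressed NM records. The 5 were the sulfotransferases SULT1A1 (-1.25), SULT1A2 (-1.17), SULT1C2 (-1.33) and SULT2B1 (-1.22) and the glutathione transferase GSTM2 (-1.33). All 5 had a mean from 1 to 10 RPKM, where 15.5% of NM records were low, and their intervals include the 2-fold line. SULT2B1 and GSTM2 rest on at least 15 and 11 RNC-mRNA reads. GSTP1, the most abundant glutathione transferase, had 1478 and 1796 RPKM (0.32), MGST3 had 100.2 and 97.1 RPKM (-0.01) and the microsomal MGST1 was highest (0.63). The P450s of other names were PTGIS, prostacyclin synthase (4.26 and 1.72 RPKM, -1.22), and TBXAS1, thromboxane synthase (0.0876 and 0.190 RPKM). The interval of PTGIS, -1.61 to -0.93, includes the 2-fold line.

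**Figure D5:**
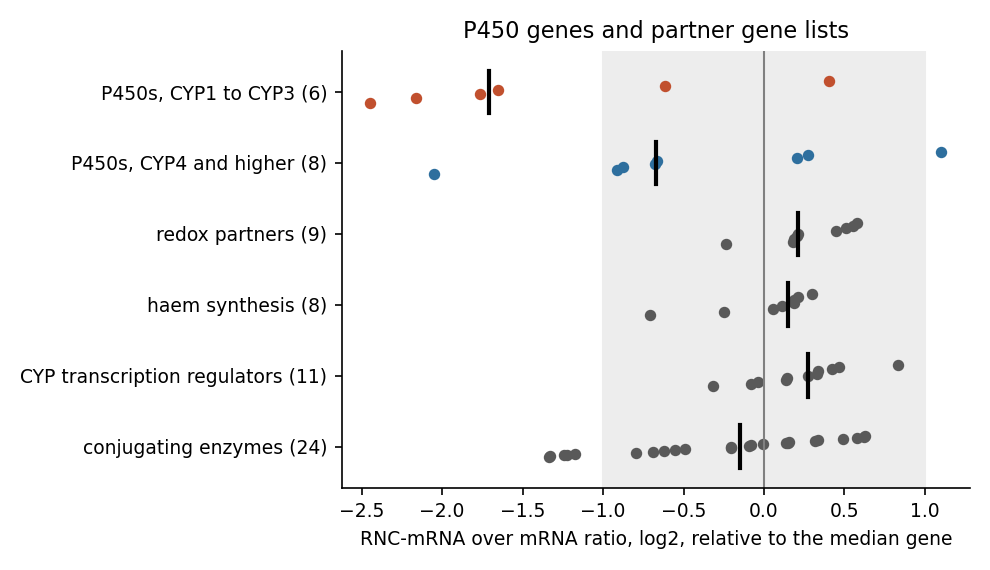
Ratio (log2, relative to the median gene) of each expressed gene in the P450 classes and 4 partner lists, with the number of expressed genes in brackets, a black bar for each median and the grey band for 2-fold either way. The 9 redox partners, 8 haem synthesis genes and 11 regulators lie inside the band, while 4 of 6 xenobiotic-family P450s lie to its left. Of all expressed NM records 8.88% were that low, and 15.5% of those with a mean from 1 to 10 RPKM.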

How the data were processed

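The authors deposited 1 table of RPKM per gene for the mRNA and RNC-mRNA libraries, with 1 RefSeq record per symbol, per the file headers. The submitters' processing notes name hg19. The aligner, the counting and the treatment of multiply matching reads are not given in the sources used here. The table holds no coordinates.

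Each library total was taken as the whole number that turned more RPKM values into whole reads than any other tried, using GENCODE release 29 transcript lengths. For mRNA this was 2399 of 17681 values, against 1622 at the next best total, and for RNC-mRNA 2122 of 16937, against 1493. Most values were thus not whole with these lengths, and the read numbers and intervals rest on these inferred totals. Intervals used the smallest pair of whole read numbers that gives a gene's 2 values, within the rounding of the printed digits and a relative error of 2e-07. If the totals are right, these cannot exceed the true reads, so for counting error alone the intervals are if anything too wide. They do not cover PCR copies or differences between preparations, and for those they are too narrow. The reference is of another build (GRCh38), so it served for lengths, overlaps, neighbour order, shared 31-base words and promoter sequences. The recovery of totals was tested on simulated data in which every transcript length was the right one, unlike here. The intervals were tested there with the true reads and totals, so intervals from the smallest read numbers were not tested. Python 3.11.15, numpy 2.4.6 and scipy 1.17.1 were used.

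The members, classes and partner lists were chosen with earlier results of these data known. Every gene with a mean of at least 1 RPKM is named, with the nearest genes on each side of that threshold. From each partner list come every redox partner, the 2 most abundant genes and the highest and lowest ratio. Other P450 genes under the threshold, FABP2, the 5 low conjugating enzymes, the regulators AHR and NR1I3, and the regulators below the filter were named after their values were seen. The values of 2 genes that these rules or lists cover are not reported here.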

Additional observations from a re-analysis of the deposited data

Results flagged for a closer look

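Some P450 genes and pseudogenes that the table pairs with non-coding (NR) records, and that are therefore outside the 54 genes, held signal above the limit that a count of 0 allows. CYP3A5, a protein-coding gene of the adult liver and intestine that is paired with an NR record here, had 2.77 RPKM as mRNA and 0.677 RPKM as RNC-mRNA. Its ratio was -1.85 (interval -2.70 to -1.34), and its mRNA level was higher than that of any CYP3 gene among the 54. The pseudogene CYP4F30P had 4.01 and 0.321 RPKM (-3.25), and the pseudogene CYP2B7P1 had 1.53 and 0.217 RPKM (-2.33). How reads were shared between these pseudogenes and their coding relatives was not tested.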

How the results depend on the processing

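With 1 RPKM added, and where the interval had to lie wholly beyond 2-fold (added after seeing the data), 0 P450 genes were 2-fold above the median. The count 2-fold below was 5 under that interval rule and 4 with 1 RPKM added, where CYP1A2 was no longer counted (-0.94). With a mean of at least 5 RPKM, 4 genes were left, with 1 below and 0 above. With no filter, 15 of 46 were below and 2 above. The shares of all records with either change of filter were not worked out. The 32 genes added without a filter rest together on at least 262 and 126 reads. Of NM records under 1 RPKM with some signal, 73.9% were higher as mRNA. The ratio of the xenobiotic sums was 0.0833 with no filter, over the same 23 genes, so only the subtracted median changed. It was 0.0840 without genes that share over 10% of their 31-base words (added after seeing the data), and -1.33 without CYP2S1. The ratio of the endogenous sums was -0.68 without CYP27A1. At 0.1 RPKM, 38 P450 genes were detected as mRNA and 33 as RNC-mRNA. Over the 11 alternatives for each, the median ratio ran from -1.81 to -0.19 in the xenobiotic and from -1.01 to -0.30 in the endogenous-substrate families, and the order of the classes turned with a mean of at least 5 RPKM. No ratio of a gene changed sign. With 1 RPKM added, those of CYP4V2 (-1.73), CYP1A1 (-1.60), CYP2D6 (-1.51) and CYP1A2 (-0.94) moved above the upper end of their counting intervals. Those intervals come from reads with nothing added, so the measures are not alike. No paired analysis was possible because each group has 1 library, which also leaves no replicate to leave out. Depth limits the weakest expressed genes, such as CYP2D6, CYP1A2 and CYP11A1, with as few as 10, 20 and 24 RNC-mRNA reads.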
